A study of Mus musculus with 2 samples.

Results

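The Platr genes (pluripotency-associated transcripts) are a numbered series of mouse genes, most of them long noncoding RNAs. Every feature whose symbol was Platr followed by a number was taken, which gave 28 of the 55415 features in the tables. Of these, 24 had at least 50 unique molecular identifiers (UMIs, tags that count captured RNA molecules) over both libraries, against 19341 of all features, and 16 had at least 500. Platr8 (6 and 25 UMIs in the positive and negative library), Platr9 (22 and 22) and Platr19 (17 and 10) fell under 50 and are not described further. Platr13 had 0 UMIs in both libraries, which allows up to 3 UMIs in a library.

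The cells were mouse embryonic stem cells of 1 line in which GFP is driven by the promoter of the endogenous retrovirus MERVL and an H2B-mIFP fusion tracks the cells. Both groups carry both transgenes, and no treatment or time is named in the labels. Each group, MERVL GFP positive and MERVL GFP negative, is 1 single-cell library. There is thus no replicate behind any comparison and no p-value is given. The batch label is the same as the group, so that group and batch cannot be told apart. The labels used here do not say how cells were separated into the groups or whether the line is 1 clone.

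After filtering, 4596 cells of the positive library (138303336 UMIs, median 29554.5 per cell) and all 3832 of the negative library (156406894 UMIs, median 39099.5) were used, and the libraries shared 3 cell barcodes. The GFP transcript was at 204.6 CPM (UMIs of a gene scaled to a library total of 1e6) among positive and 0.454 CPM among negative cells, in the order of the labels. Pou5f1, a core factor of stem cells, was at 278 and 389 CPM. To set cells of unequal depth side by side, each cell with at least 10000 UMIs was thinned at random to 10000, which left 4402 positive and 3824 negative cells. Of these positive cells, 1711 had no thinned GFP UMI. All intervals below are 95% intervals and cover counting error only.

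Platr RNAs were named for levels that accompany the pluripotency factors of embryonic stem cells and drop when those cells differentiate. A small share of cells in such cultures passes through a 2-cell-like state, in which MERVL elements and genes of the cleavage-stage embryo are transcribed. MERVL promoters can start chimeric transcripts of neighbouring genes, and the zinc finger genes Zscan4a to Zscan4f are standard markers of the state. These genes are near-identical copies between which reads can be split, so their summed UMIs per cell are the scale used below.

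In the GENCODE vM21 annotation of GRCm38 (mm10), 19 of the 28 genes are lincRNAs, 6 are processed transcripts, Platr31 is an antisense RNA, Platr32 is a sense intronic RNA, and Platr25 is annotated as protein coding. Platr31 lies at chr6:127100297-127110467 on the plus strand, with exons of 116, 183 and 1167 bases, over the oppositely oriented Tigar, a regulator of glycolysis. The labels used here do not state whether counting used strand, and 122 of the 1466 exon bases of Platr31 overlap exons of Tigar. Tigar itself was 1.26 times as high in the positive as in the negative library and 0.868 times as high in cells with 5 or more Zscan4 UMIs as in cells with none. Whether reads of Tigar are counted for Platr31 was not tested.

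The first exon of Platr31 is shown because its sequence recurs at the start of many transcripts with the same pattern of counts. At least 80 aligned bases at 85% identity or more on the same strand were found in transcripts of 131 other genes among 141767 transcripts searched. In 108 of them the match lay within 50 bases of the transcript's start. The lines below give the exon of Platr31 and the matching stretch of 4 genes not annotated as protein coding. The 4 were picked for high UMI counts in the positive library. Bases that differ from Platr31 are in capitals. Gm16243 also lacks 1 base.
Platr31: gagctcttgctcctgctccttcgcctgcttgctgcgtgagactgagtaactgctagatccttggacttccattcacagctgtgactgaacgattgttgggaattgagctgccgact
Gm28940: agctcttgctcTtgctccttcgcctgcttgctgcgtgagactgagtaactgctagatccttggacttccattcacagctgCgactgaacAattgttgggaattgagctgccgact
Gm44660: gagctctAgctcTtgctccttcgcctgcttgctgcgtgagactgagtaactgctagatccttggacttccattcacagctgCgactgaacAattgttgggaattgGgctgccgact
Gm16243: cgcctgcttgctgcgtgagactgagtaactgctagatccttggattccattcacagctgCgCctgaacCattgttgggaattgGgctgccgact
A930014E10Rik: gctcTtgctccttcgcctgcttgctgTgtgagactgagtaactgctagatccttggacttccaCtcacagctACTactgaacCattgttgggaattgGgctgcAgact

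Gm28940 (chr1:82392493-82402746, minus strand, antisense RNA) shared 97.4% of 115 aligned bases and was at 62.5 CPM in the positive and 0.192 CPM in the negative library. Gm44660 (chr7:19897334-19899798, plus strand, experimentally unresolved transcript) was at 48.2 and 0.109 CPM. Gm16243 (chr13:95208112-95208936, plus strand, antisense RNA) had 4313 UMIs among positive and 2 among negative cells. A930014E10Rik (chr6:142971752-142973818, plus strand, lincRNA) had 4110 and 157 UMIs. All 4 were also higher in positive-library cells with 5 or more Zscan4 UMIs than in those with none, with log2 ratios of 2.78, 3.32, 3.24 and 2.87 in the order of the lines above. Because the 4 were picked for high positive-library counts, these values do not stand for the whole set of matching genes.

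Of the 130 genes in the tables that share the exon's sequence, 107 had at least 50 UMIs over both libraries, and 95 of these were at least 2-fold higher in the positive library and none lower. A gene that is high in the positive library can reach this minimum through that library alone, so the share of 95 among 107 is partly set by the minimum. With the minimum required in the negative library, where the genes are low, 18 of 30 (60%) were 2-fold higher and 0 lower, where 10.7% of all features were higher. Within the positive library, with the minimum required in cells without Zscan4 UMIs, 65 of 82 (79.3%) were 2-fold higher in cells with 5 or more Zscan4 UMIs (7.42% of all features). With the minimum required in cells without GFP UMIs, 53 of 73 (72.6%) were higher in cells with a GFP UMI (2.88%). The set and this minimum were made after these values were known, and no repeat annotation was used here, so the shared sequence is not assigned to an element. Reads that fall in the shared stretch could be counted for more than 1 gene; outside it, no other gene matched Platr31 over 200 or more bases at 85% identity.

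**Figure D1:**
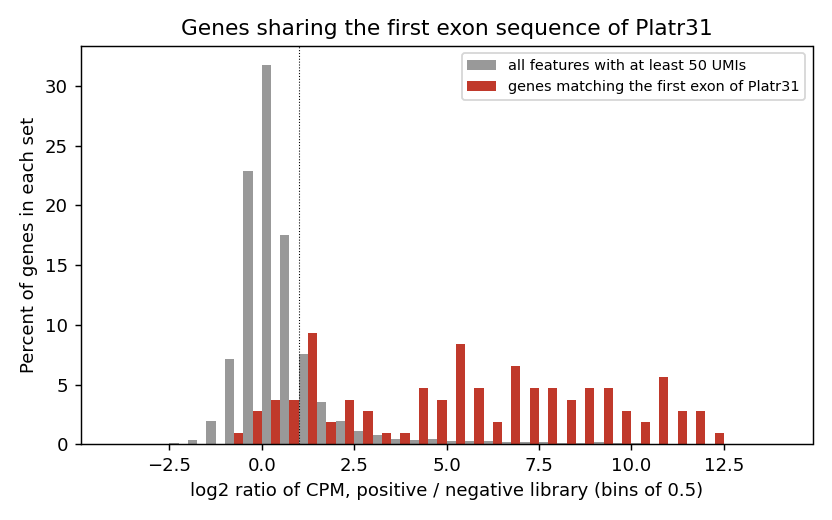
Distribution of log2 ratios of CPM, positive over negative library, for the 107 measured genes that share the first-exon sequence of Platr31 and for all 19341 measured features, each as a percent of its own set in bins of log2 ratio. The median lies at 5.79 for the matched and 0.26 for all features, each among those with 50 UMIs over both libraries, a minimum that favours genes high in the positive library.

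Among the other Platr genes, Platr25 alone matched the exon, in 1 of its 10 annotated transcripts, over 115 bases at 96.5% identity with 4 differing bases. The pair is shown over a 30-base window, bases 62 to 91 of Platr31 and 61 to 90 of that Platr25 transcript, with the 2 differing bases in capitals.
Platr31 window: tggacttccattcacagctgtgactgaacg
Platr25 window: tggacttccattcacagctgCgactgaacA
Counts per gene do not separate the transcripts of Platr25. The gene as a whole was at 19.6 CPM in the positive and 12.1 CPM in the negative library, a ratio of 1.63 (1.53 to 1.72). The first exon of Platr28 also recurred, in 193 genes, of which 26 of the 99 measured (26.3%) were 2-fold higher in the positive library, against 18.3% of all features. Where its match lay at the transcript's start this was 14 of 36 (38.9%). With Zscan4, 14 of 79 were 2-fold higher and 11 lower over all matches, with a median log2 ratio of -0.08, where 9.36% of all features were higher and 7.79% lower. Of the 30 measured with the match at the start, 7 were higher and 3 lower, with a median of 0.04. First exons of Platr16, Platr10, Platr25 and Platr15 recurred in 20, 14, 8 and 7 genes. Of those measured, 0 of 20, 2 of 8, 0 of 7 and 0 of 3 were 2-fold higher in the positive library. Those of Platr14 and Platr30 matched 1 gene each.

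The comparison of the libraries asked which members differ between reporter-positive and reporter-negative cells. A member was counted as higher or lower where its CPM differed at least 2-fold. Of the 24 members, 3 were higher in the positive library (Platr31, Platr27 and Platr30), where 18.3% of all features and 30.8% of other GENCODE long noncoding RNAs were, and 2 were lower (Platr12 and Platr11), where 2.48% and 3.18% were. The share of members that were higher was therefore near or below the background. With TMM scaling, which moved the median log2 ratio of all features from 0.26 to 0.02, the split was 2 higher and 3 lower, where 14.0% and 4.88% of all features were. The members' median log2 ratio was 0.10, against 0.26 for all features and 0.58 for other long noncoding RNAs.

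Platr31 had 45155 UMIs among positive cells (326 CPM, 323 to 330) and 55 among negative cells (0.352 CPM, 0.265 to 0.458). The ratio was 928 (713 to 1233), and Platr31 ranked 56th from the highest among the 19341 features. Platr31 made up 60.5% of all Platr UMIs of positive cells and 0.182% of those of negative cells. Without Platr31, the summed level of all other Platr genes was 213 CPM in the positive and 193 CPM in the negative library. The difference in the family's total was thus carried by 1 gene.

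Platr27, a lincRNA gene, was at 16.6 CPM (15.9 to 17.3) in positive cells against 7.17 CPM (6.76 to 7.61), a ratio of 2.31 (2.15 to 2.49). Platr30 rested on few molecules, 39 against 15 UMIs, with a ratio of 2.94 and an interval down to 1.58. Platr12 was at 0.940 and 3.96 CPM, 4.21-fold lower (3.48 to 5.13) in the positive library, and ranked 19326th of 19341. Platr11 had 50 and 124 UMIs, 2.19-fold lower (1.57 to 3.11). Just outside the 2-fold limit, Platr29 had 21 and 47 UMIs, 1.98-fold lower (1.16 to 3.49). Platr12 and Platr31 thus stood near opposite ends of the ranking, while Platr30, Platr11 and Platr29 had under 200 UMIs each.

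The remaining members with 500 or more UMIs differed less than 2-fold between the libraries. Platr3, a lincRNA gene, was at 57.2 CPM (56.0 to 58.5) in positive cells against 31.9 CPM (31.1 to 32.8), a ratio of 1.79. Platr10 was at 39.9 CPM (38.8 to 40.9) against 63.0 CPM (61.7 to 64.2), 1.58-fold lower. These were differences well outside counting error but inside the 2-fold limit. Platr14, reported in work on stem cells to influence differentiation genes, was at 21.3 and 14.8 CPM, a ratio of 1.44. Platr15 (3.10 and 1.80 CPM) and Platr20 (3.09 and 2.17 CPM) were also nominally higher, and Platr7 was at 2.01 and 3.32 CPM, 1.65-fold lower. Platr5, Platr26, Platr4, Platr21, Platr22 and Platr23 lay between 1.35-fold lower (Platr22) and 1.07 times as high (Platr26).

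**Figure D2:**
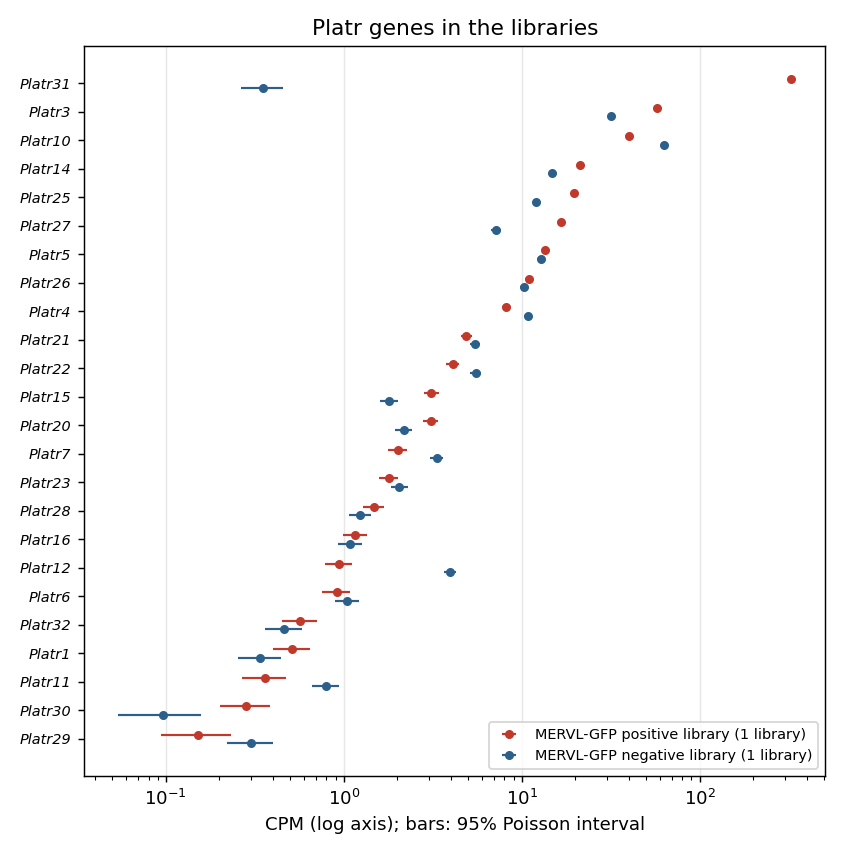
CPM of each measured Platr gene in the positive and negative library on a log axis, with 95% Poisson intervals for counting error. Platr31 is at 326 and 0.352 CPM, and no other member is separated by more than 4.21-fold. CPM is not divided by length, so heights are to be compared between libraries and not between genes.

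The share of cells with a UMI had the same order between libraries for Platr31, Platr10 and Platr3, while Platr26 was detected in 9.79% of positive and 9.81% of negative cells. After thinning, Platr31 was detected in 76.5% of positive cells and 0.262% of negative cells (10 of 3824). A GFP UMI was found in 0.445% of the negative cells; whether these UMIs are free RNA or come from cells expressing the genes was not tested. Without thinning, Platr31 was seen in 48 negative cells, with at most 4 UMIs in a cell and with 2 or more in 3 cells. Platr10 was detected in 29.4% of positive and 44.9% of negative cells, and Platr3 in 38.8% and 24.8%. Platr10 and Platr3 were thus spread over many cells of both libraries, unlike Platr31.

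Within the positive library, cells with at least 1 thinned GFP UMI (2691) were compared with cells with none (1711). Platr31 was at 445 CPM in the former (441 to 450) and 145 CPM in the latter (142 to 148), a ratio of 3.06 (2.99 to 3.14). It was the 1 member of 22 measured that was 2-fold higher, where 4.47% of all features were. Platr12 (43 and 84 UMIs, 2.74-fold lower, 1.87 to 4.05) and Platr1 (27 and 39 UMIs, 2.02-fold lower, 1.21 to 3.44) were the 2 that were lower, where 1.3% were. With TMM scaling 1 was higher and 1 lower, where 4.93% and 0.861% of all features were. In all, 15 of the 22 lay below a ratio of 1, with a median log2 ratio of -0.38 against -0.07 for all features.

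Among members with 500 or more UMIs, Platr4 had 502 and 624 UMIs (1.74-fold lower) and Platr22 was at 2.91 and 5.62 CPM (1.93-fold lower) in cells with and without GFP UMIs. Platr10 was at 35.1 and 46.7 CPM, and Platr3 at 56.3 and 58.7 CPM. Platr27 was at 18.6 and 13.7 CPM, a ratio of 1.36, Platr25 had a ratio of 1.19 and Platr20 of 1.23. Thus Platr3 and Platr27, both nominally or 2-fold higher in the positive library, showed ratios of 0.959 and 1.36 along the GFP transcript inside that library.

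Cells of the positive library were then ordered by their summed thinned Zscan4 UMIs. The classes of 0, 1 to 4, 5 to 19 and 20 or more held 1971, 1569, 615 and 247 cells. Platr31 was at 151 CPM (148 to 154), 307 CPM (302 to 312), 859 CPM (844 to 873) and 978 CPM (951 to 1007) in this order. The share of cells with a thinned Platr31 UMI was 66.0, 78.3, 96.3 and 99.6%. Platr31 was therefore higher in each class than in the one before, with the smallest step between the top classes.

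Between 862 cells with 5 or more Zscan4 UMIs and 1971 with none, Platr31 was at 887 and 151 CPM, a ratio of 5.88 (5.74 to 6.03). It was the 1 member of 19 measured that was 2-fold higher, where 9.36% of all features and 20.2% of other long noncoding RNAs were. The number 2-fold lower was 8 of 19, where 7.79% of all features and 15.7% of other long noncoding RNAs were. This count depends on the minimum of 50 UMIs over both classes: with 50 required in the class with 5 or more Zscan4 UMIs, a setting added after seeing the data, 3 of 12 members were lower (Platr4, Platr10 and Platr21), where 3.31% of all features were. The members' median log2 ratio was -0.68, against -0.11 for all features and -0.07 for other long noncoding RNAs, and 14 of 19 lay below a ratio of 1. This median and the 14 of 19 include members with under 50 UMIs in the high class. With TMM scaling 2 were higher, Platr27 being added, and 7 lower, Platr10 being lost, where 10.6% and 6.22% of all features were.

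Among the 8 lower members, Platr12 had 2 and 84 UMIs, 13.3-fold lower with a wide interval (3.57 to 112). Platr4, a noncoding RNA studied in mesoderm commitment, was at 2.68 and 10.3 CPM, 3.85-fold lower (2.93 to 5.16), and across the 4 classes it was at 10.3, 7.83, 2.80 and 2.26 CPM. Platr10 was at 23.3 and 46.5 CPM, 2.00-fold lower (1.82 to 2.21), exactly at the limit, and at 46.5, 38.2, 24.98 and 17.6 CPM across the classes. Both genes were thus lowest in the class with most Zscan4. Platr7 was 3.61-fold lower, Platr28 2.90-fold, Platr22 2.75-fold and Platr21 2.25-fold. Platr23 completed the 8, with 19 and 143 UMIs. Platr12, Platr28, Platr7, Platr23 and Platr22 had 36 or fewer UMIs in the high class and reached the minimum of 50 through the larger class without Zscan4 UMIs. The summed level of Platr genes without Platr31 was 224, 213, 185 and 155 CPM over the classes.

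Platr27, by contrast, was at 25.9 and 13.6 CPM, a ratio of 1.90 (1.70 to 2.11), and at 13.6, 16.6, 26.9 and 22.4 CPM over the 4 classes. Platr25 had a ratio of 1.44 (1.29 to 1.60) and Platr20 of 1.45. Platr14 (20.3 and 21.0 CPM) and Platr3 (49.2 and 59.4 CPM) were close to level, and Platr5 was at 9.46 and 15.1 CPM. At the CPM scale no measured member other than Platr31 was thus 2-fold higher with Zscan4, and Platr27 came nearest to it among those. Platr30, too rare to be measured there, had 13 UMIs (0.621 CPM, 0.331 to 1.06) in cells with 5 or more Zscan4 UMIs and 10 (0.151 CPM, 0.0726 to 0.278) in cells with none.

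**Figure D3:**
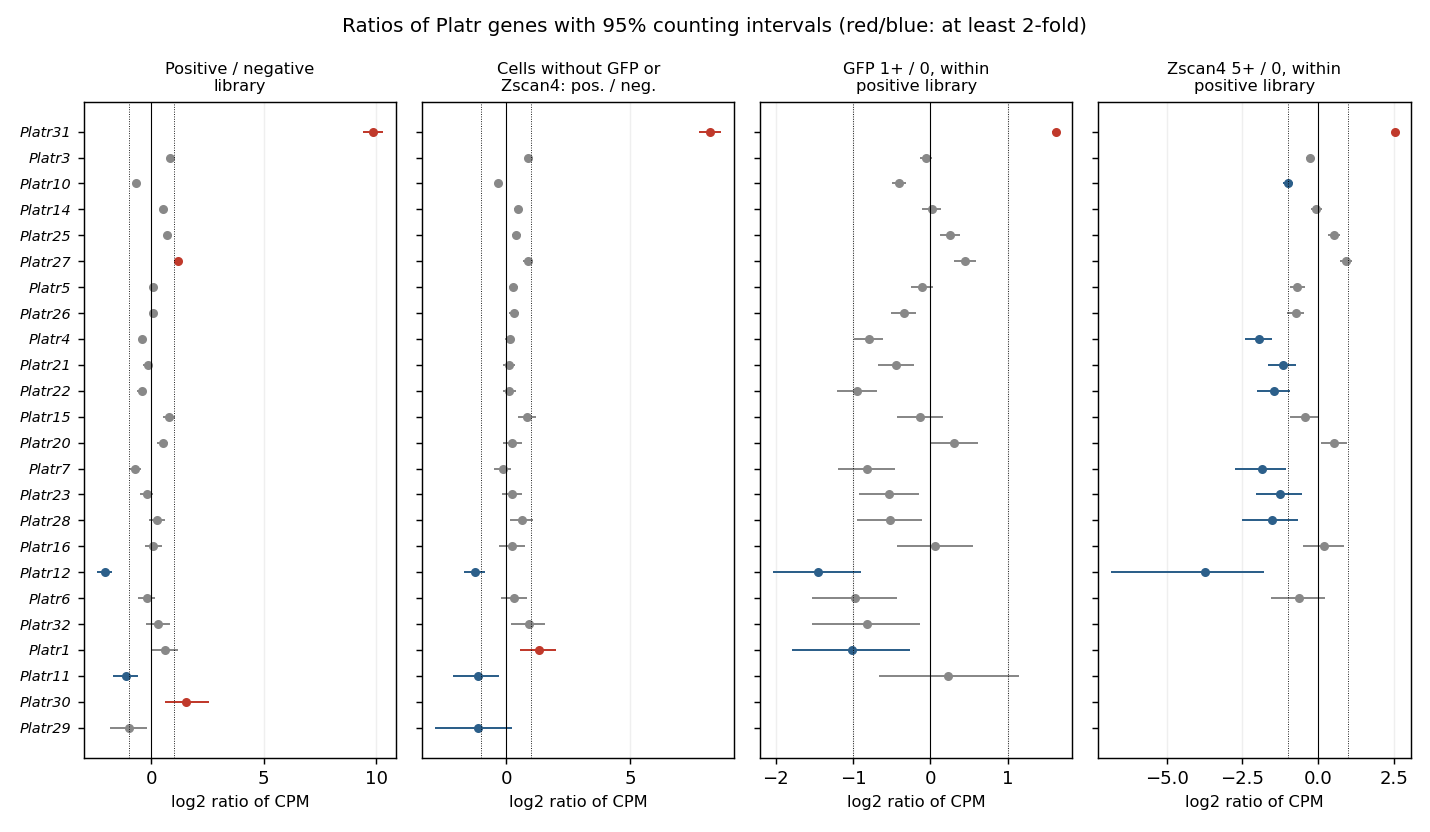
Ratio of CPM on a log2 axis for each measured Platr gene in the 4 comparisons (libraries, GFP classes, Zscan4 classes, and cells without GFP or Zscan4 UMIs between libraries), with 95% counting intervals; red marks at least 2-fold higher and blue at least 2-fold lower, and each panel has its own range on the x axis. Platr31 lies furthest to the right in all 4 panels, and the Zscan4 panel holds 8 members at least 2-fold lower.

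Other genes of the state and of pluripotency moved between the same cells as follows, by lists assembled with earlier results of these data known. All 20 measured 2-cell-like markers were 2-fold higher with Zscan4, 6 of which are the Zscan4 genes that set the classes; 9.36% of all features were higher and 7.79% lower. Of 19 pluripotency genes, 6 were 2-fold lower and none was higher, with a median log2 ratio of -0.87. Zfp42, a marker of naive stem cells, was at 415 and 1077 CPM, Utf1, a chromatin factor of stem cells, at 73.3 and 204 CPM, and Nanog, a core factor, at 325 and 419 CPM. The median of the Platr members, -0.68, lay between that list's and that of 17 other long noncoding RNAs expressed in stem cells, -0.08, of which 2 were higher and none lower. The median depth per cell was also lower with Zscan4, from 32980 UMIs in the class of 0 to 18781 in the class of 20 or more, and the part of depth in these differences was not tested beyond the thinned values given at the end.

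The GFP and Zscan4 transcripts could be separated in part. In cells with a GFP UMI, Platr31 was at 942 CPM with 5 or more Zscan4 UMIs and 208 CPM with none, a ratio of 4.52 (4.39 to 4.65). In cells without a GFP UMI it was at 540 and 103 CPM, a ratio of 5.24 (4.93 to 5.56), over 107 and 1065 cells. In cells with a GFP UMI, Platr31 was the 1 member of 17 that was 2-fold higher, where 8.36% of all features were, and 5 were lower (Platr23, Platr21, Platr4, Platr28 and Platr7), where 5.04% were. In cells without one, 5 of 19 were lower (Platr5, Platr22, Platr21, Platr4 and Platr7), where 6.24% were, and Platr27 (2.10, 1.63 to 2.67) and Platr20 (15 and 92 UMIs, 2.06, 1.11 to 3.57) were 2-fold higher beside Platr31, where 9.71% were. Platr21, Platr4 and Platr7 were lower in both, but in cells without GFP UMIs they rested on 5, 8 and 4 UMIs in the high class. Platr23, Platr28 and Platr7 were under the minimum of UMIs in the whole high class, as given above. In cells with a GFP UMI they were thus measured through the cells without Zscan4 UMIs, where they are high. The counts of lower members in both sets of cells are therefore partly set by that minimum.

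Cells with neither a GFP nor a Zscan4 UMI after thinning (1065 positive, 3798 negative) were compared between the libraries. Platr31 was at 103 CPM (99.8 to 106) and 0.348 CPM (0.261 to 0.454), 3725 against 54 UMIs, a ratio of 296 (227 to 395). It was detected in 60.8% of these positive cells (57.7 to 63.7) and 0.237% of the negative ones. These positive cells were not free of the state's transcripts: over all their UMIs, GFP was at 26.8 CPM against 0.277 CPM in the negative cells, and Gm21761, another 2-cell-like marker, at 111 against 0.200 CPM. Platr31 UMIs per Gm21761 UMI were 0.926 in them, against 0.282 over all positive cells and 0.0870 in the class of 20 or more Zscan4 UMIs. For 3 other transcripts the same 3 values were 9.70, 4.19 and 3.61 (per UMI of Sp110), 55.6, 22.4 and 21.4 (Zfp352) and 3.85, 1.57 and 2.05 (GFP, whose thinned UMIs set the class). The ratio was highest in the cells without GFP or Zscan4 UMIs for Gm21761, Sp110 and Zfp352. It was highest there for GFP too, which follows from how the class was set. Whether setting the class also lowered the other transcripts was not tested. Between all positive cells and the top class the ratio differed most for Gm21761 and was higher in the top class for GFP. What part free RNA had in these counts was not tested.

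Of the 23 members measured in that comparison, Platr31 and Platr1 (30 and 52 UMIs, a ratio of 2.48, 1.53 to 3.96) were 2-fold higher in the positive cells, where 11.5% of all features were. Platr12 (1.66 and 3.97 CPM, 2.39-fold lower), Platr11 (13 and 124 UMIs, 2.22-fold lower) and Platr29 (5 and 47 UMIs, 2.19-fold lower, 0.874 to 7.05) were lower, where 1.23% were. Platr11 and Platr29 reached the minimum of 50 UMIs mainly through the negative cells, where they are high. The count of lower members is thus partly set by that minimum. Platr3 was at 58.2 and 31.9 CPM here, much as in the whole libraries, and Platr27 at 13.1 and 7.19 CPM. Platr4 was at 11.9 and 10.8 CPM and Platr22 at 6.03 and 5.50 CPM, so that these members of the Zscan4-low group were nearly level between libraries in cells without the markers. Platr10 was at 50.3 and 63.0 CPM.

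Cell by cell, Platr31 counts were uneven. In the thinned positive cells the median was 2 UMIs, the central 80% of cells ran from 0 to 11 and the highest cell had 142. The 440 cells with most Platr31 held 50.8% of its UMIs, and 1034 cells (23.5%) had none. Medians were 1, 2, 6 and 9 UMIs over the Zscan4 classes. Of 1004 cells with 5 or more Platr31 UMIs, 87.5% had a Zscan4 UMI, against 55.2% of all 4402 cells. Of the same 1004 cells, 553 (55.1%) had 5 or more Zscan4 UMIs, against 19.6% of all, and 24 cells had 5 or more Zscan4 UMIs and no Platr31 UMI. High counts of Platr31 and of Zscan4 thus coincided in part of the cells.

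**Figure D4:**
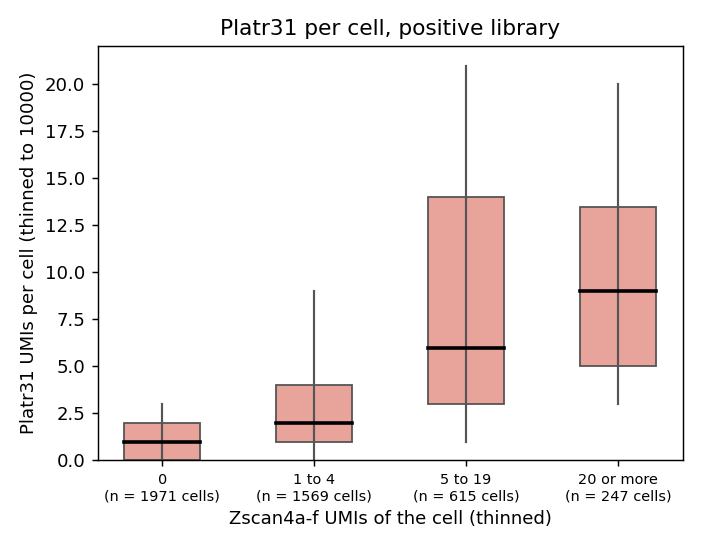
Thinned Platr31 UMIs per positive-library cell in each class of summed Zscan4 UMIs. Medians are 1, 2, 6 and 9 UMIs, and classes overlap, with cells of over 50 UMIs in every class.

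Over the 4402 cells, which share 1 library and a fixed depth, the Pearson correlation of log counts of Platr31 with the Zscan4 sum was 0.55 (Spearman 0.51), given as a description. For the other members it lay between -0.15 (Platr10) and 0.08 (Platr27). Most member pairs were weakly correlated: among 120 pairs, the furthest from 0 were Platr10 with Platr31 (-0.18) and Platr27 with Platr31 (0.13), and in the negative library the furthest from 0 was Platr27 with Platr4 (0.061). Among 10706 genes, the 5 whose counts were most like those of Platr31 over these cells were Gm20767 (0.73), Scamp1 (0.73), Gm13228 (0.72), Eif4a3l1 (0.71) and Zfp560 (0.70). Zscan4d stood at rank 84 (0.47) and GFP at rank 88 (0.47).

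Both libraries also held cells with markers of primitive endoderm, the extraembryonic lineage of the inner cell mass. Cells with 5 or more thinned UMIs over 6 markers (Gata6, Gata4, Sox17, Sox7, Pdgfra and Dab2) were 454 of 4402 positive and 206 of 3824 negative cells. The 6 markers summed to 227, 169, 129 and 57.7 CPM over the Zscan4 classes from 0 upward. Of the list of 13 endoderm genes, none at 0 in either library, 6 were 2-fold higher in the positive library (796 against 333 CPM summed), where 18.3% of all features were, and 5 were 2-fold lower with Zscan4 (665 against 870 CPM summed), where 7.79% were. Without the endoderm cells, 5 of 24 members were past 2-fold in either direction between libraries, at the 21.1% of all features, and 10 of 19 between Zscan4 classes, where 17.5% were.

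Between endoderm-marker cells and cells with no such UMI, 8 of 21 members were 2-fold lower in the positive library, where 16% of all features were, and 11 of 20 in the negative library, where 10.9% were. Of other long noncoding RNAs, 25.5% were lower in the positive and 20.3% in the negative library. Platr26 was at 3.12 and 12.1 CPM (3.88-fold lower, 2.88 to 5.35) in the positive and 4.88 and 10.6 CPM (2.16-fold lower, 1.59 to 3.02) in the negative library. Platr10 was at 20.1 and 43.7 CPM in the positive and 30.1 and 64.8 CPM in the negative library. Platr23, Platr7, Platr28, Platr16, Platr6 and Platr32 were also past 2-fold lower in both, on 9 or fewer UMIs in the endoderm cells of each. These 6 reached the minimum of 50 UMIs through the larger class of cells without endoderm markers, where they are high. The counting interval of the ratio reached 1 for Platr32 in both libraries and for Platr6 in the negative library. Among the members lower in both libraries, Platr26 and Platr10 were thus those whose lower level rested on 42 or more UMIs in every class.

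Platr15 was the 1 member 2-fold higher with endoderm markers in the negative library, at 4.53 and 1.67 CPM (2.71, 1.88 to 3.83), where 7.89% of features were. In the whole positive library Platr15 was not 2-fold higher. In positive cells without GFP or Zscan4 UMIs it was at 6.80 and 2.85 CPM (2.38, 1.47 to 3.75), where 7.12% were, and 5 of 16 members were 2-fold lower, where 11.9% were. Platr31 was at 535 and 243 CPM in the positive library, a ratio of 2.21, where 6.63% were higher. In cells without GFP or Zscan4 UMIs it was at 137 and 93.8 CPM, a ratio of 1.46 (1.33 to 1.61). With a limit of 10 endoderm UMIs in place of 5, no member of 20 was 2-fold higher in the positive library, Platr31 included, where 6.81% of all features were. The 2-cell-like list did not share its direction between the same cells: 1 of 20 markers was 2-fold higher and 8 were lower with endoderm markers (limit of 5), with a median log2 ratio of -0.85 and a summed level of 1237 against 1750 CPM.

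The surroundings of the other members were mixed. Platr21 overlaps Trap1a on the opposite strand with 0 shared exon bases, Platr12 overlaps Gpr1 likewise, Platr32 lies in an intron of Alpk3 on the same strand, and 290 of the 665 exon bases of Platr16 are shared with the pseudogene Gm13230 on the same strand. Platr30 shares 162 exon bases with Gm26553 on the opposite strand. Counts of Platr16 and Platr30 are therefore uncertain. Platr32 reads could also come from unspliced Alpk3, which was 0.655 times as high in the positive as in the negative library, against 1.24 (0.890 to 1.73) for Platr32.

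RefSeq promoter windows (GRCm38.p6, 250 bases before to 50 after the start) were matched by gene for 11 members, with 13 windows. On both strands, the palindromic motif of the 2-cell-stage factor Dux was in 0 of 11 members and 0.0335% of all 32851 windows, and TCAAGGTCA, the Esrrb motif, in 0 of 11 and 0.423%. TGCACAC, a motif given for Zscan4, and ATGCAAAT, the octamer of Pou-domain factors, were each found for Platr21 (4.40% and 1.74% of all windows), and TATAAA for Platr5 (13.6%). Platr31 and Platr27 had no window. A match says that the letters are present and no more.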

How the data were processed

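Single-cell libraries of reporter-positive and reporter-negative cells were deposited as matrices of raw UMI counts per gene and cell, with no normalization, per the file headers. The submitters' processing notes name FastQC 0.11.2, Trim Galore 0.6.4, STAR 2.7.6a and the build mm10; the labels' protocol describes an RNA kit and library kit without cell barcodes, and the counter, strand and end of the transcript read are not given in the sources used here. The members and lists were chosen with earlier results of these data known.

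Cells with at least 1000 UMIs, 500 genes and at most 20% mitochondrial UMIs were kept. Cells with at least 10000 UMIs were thinned to 10000 (random seed 1) to set the GFP, Zscan4 and endoderm classes and shares; 194 positive and 8 negative cells were too shallow. All UMIs of a class were summed and scaled to CPM. Doublets were not called, but an alternative dropped cells over 2 times their library's median depth. A gene was measured with at least 50 UMIs over the cells compared and counted at a ratio of CPM of at least 2, a sum of 0 being set to 3 UMIs. A group is 1 library, so nothing was tested. CPM has exact Poisson, ratios exact conditional and shares Clopper-Pearson intervals, for counting error only. Members with 500 UMIs, or past the ratio in any of the 4 comparisons, are named with values. Python 3.11.15, numpy 2.4.6, scipy 1.17.1, BLAST 2.17.0+ (first exons and transcripts against GENCODE vM21) and, for 1 alternative scaling, edgeR 4.0.16 were used; all 28 Platr IDs and 52081 of 55415 IDs matched vM21.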

Additional observations from a re-analysis of the deposited data

How the results depend on the processing

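No paired analysis was possible because the labels give 1 library per group, and no library could be left out. The counts of members past 2-fold were 5 (libraries), 3 (GFP), 9 (Zscan4) and 5 (cells without GFP or Zscan4 UMIs), against 20.7, 5.77, 17.1 and 12.7% of all features. With a ratio of at least 4 they were 2, 0, 2 and 1 (7.29, 1.81, 4.51 and 2.56% of all features). With 1.5 they were 12, 8, 13 and 10 (39.5, 15.8, 35.2 and 30.3%). With CPM + 1 they were 3, 1, 5 and 1 (7.02, 2.51, 9.17 and 3.87%). With at least 500 UMIs they were 3 of 16, 1 of 11, 3 of 9 and 2 of 13 (12.1, 3.51, 10.1 and 4.56%), and with at least 10 CPM in either group 2, 1, 3 and 1 of 9 (8.94, 3.51, 11.2 and 3.87%). These settings test fewer genes or move the limit by construction. With no minimum the Zscan4 count was 16 of 27 (37.2%). With thinned UMIs it was 5 of 13 for Zscan4 (16.4%) and 2 of 18 for the cells without GFP or Zscan4 UMIs (8.40%). For GFP the mean of each cell's CPM gave 5 (6.78%) and a limit of 3 GFP UMIs gave 7 (10.02%), and 1 or more against 0 Zscan4 UMIs gave 2 (6.13%); the cause was not tested. With 50 UMIs required in the high-Zscan4 class the Zscan4 count was 4 of 12 (13.5%), with fewer genes measured by construction. Platr31 was detected in 95.8% of all positive cells without thinning and in 59.2% at 5000 UMIs, against 76.5%. The correlation of Platr31 with Zscan4 was 0.55 on log counts and 0.22 on presence or absence.

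In these 4 comparisons Platr31 kept its direction and stayed past the limit under each setting except a ratio of 4 for GFP; between endoderm classes it was not 2-fold higher with a limit of 10 endoderm UMIs. All 22 called member ratios kept their direction under every setting run; 15 of 66 uncalled ones changed sign under at least 1. TMM scaling moved the median log2 ratio of all features from 0.26 to 0.02 between libraries. Under it Platr27 was no longer 2-fold higher between libraries, Platr29 was 2-fold lower, Platr10 was no longer 2-fold lower with Zscan4, and Platr27 was 2-fold higher with it, as also without endoderm cells. Platr10 also lost this call with the median of ratios, with CPM that leave out mitochondrial and ribosomal protein genes, with Zscan4 pseudogenes added and, together with Platr23, with another random seed. Platr21 and Platr23 lost it with no cell filter. With CPM + 1, Platr10, Platr21, Platr23 and Platr28 lost it, and with 1 or more Zscan4 UMIs all 8 did but Platr12. With thinned UMIs Platr7, Platr12, Platr23 and Platr28 were no longer called. Over the match rules tried after seeing the data, 83.9 to 90.8% of first-exon matches were 2-fold higher between libraries, and with Zscan4 at least 39 of 52 and at most 84.0%. Values of the members under 200 UMIs rest on few molecules.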
